A study of Mus musculus with 4 samples.

Results

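H3K27ac peaks were described at 10 genes of MHC antigen presentation in mouse Th17 cells, the IL-17-secreting helper T cells. The genes were 7 of the class I pathway (H2-K1, H2-D1, B2m, Tap1, Tap2, Tapbp and Nlrc5) and 3 of the class II pathway (Ciita, H2-Aa and H2-Ab1), out of the 21631 protein-coding genes of the autosomes and the X chromosome. The members were given by name, and their peaks were those overlapping the gene or 10000 bp on each side by at least 1 bp, which gave 42 distinct peaks of 56285 in the list. H3K27ac, an acetylated lysine of histone H3, marks active promoters and enhancers. The labels give naive CD4+ T cells from C57BL/6 animals. These were stimulated for 72 h with anti-CD3ε (0.25 µg/mL) and anti-CD28 (1 µg/mL), together with IL-6 at 20 ng/mL and TGF-β, which the treatment label gives as 0.1 ng/mL and the growth protocol as 0.1 to 5.0 ng/mL. Chromatin from 2 biological replicates gave 2 H3K27ac IP libraries and 2 input DNA libraries, all from this 1 cell state. The deposited data are 1 peak list with positions alone, so no value below has a replicate error, the depth is unknown, and no test was made. The peak names carry running numbers from 15 to 71449 for 56285 peaks, so some numbers are missing. A gene without a peak has no region in the deposited list, which does not show that acetylation is absent.

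MHC class I molecules show peptides from inside the cell to CD8+ T cells and are made by nearly all nucleated cells. A heavy chain (H2-K1 or H2-D1 here) pairs with β2-microglobulin (B2m) and takes up peptides that the TAP transporter (Tap1, Tap2) moves into the endoplasmic reticulum, where tapasin (Tapbp) holds the empty molecule at the transporter. NLRC5 is the transactivator of class I genes. Class II molecules (the α chain H2-Aa and the β chain H2-Ab1 form I-A) show peptides to CD4+ T cells on B cells, dendritic cells and macrophages, under the transactivator CIITA. Resting and activated mouse T cells are known to make little or no class II of their own. NLRC5 and CIITA bind no DNA themselves and act through factors on the S, X and Y boxes of MHC promoters.

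Promoter sequences were available for 6 members and are shown because the peak list divides them. In 5 class I genes a peak spanned all 300 bases, and in H2-Aa, the only class II gene with a sequence, no peak touched any. At the first listed starts of 17274 protein-coding genes, 41.0% were fully covered and 48.8% untouched. The sequences run from 250 bases before the annotated start to 50 bases from the start on, on the gene's strand, from RefSeq (GRCm38.p6). RefSeq lists a further start of H2-K1 upstream of the one used here, and the same peak spans its promoter. Capitals mark matches, on either strand, to motifs of MHC and interferon promoters.
H2-K1 (chr17:34000284-34000583, minus strand): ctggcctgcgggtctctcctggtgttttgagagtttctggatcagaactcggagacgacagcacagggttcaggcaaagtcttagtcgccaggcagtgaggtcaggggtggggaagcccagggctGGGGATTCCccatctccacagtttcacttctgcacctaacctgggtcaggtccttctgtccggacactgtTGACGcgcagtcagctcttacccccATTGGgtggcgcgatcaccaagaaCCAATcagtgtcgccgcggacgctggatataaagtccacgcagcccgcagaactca
H2-D1 (chr17:35262844-35263143, plus strand): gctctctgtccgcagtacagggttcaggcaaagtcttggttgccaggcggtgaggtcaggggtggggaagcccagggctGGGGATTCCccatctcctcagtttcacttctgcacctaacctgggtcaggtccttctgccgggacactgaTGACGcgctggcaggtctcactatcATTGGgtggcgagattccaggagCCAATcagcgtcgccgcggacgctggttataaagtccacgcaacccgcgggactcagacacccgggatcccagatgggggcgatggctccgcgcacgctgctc
B2m (chr2:122147437-122147736, plus strand): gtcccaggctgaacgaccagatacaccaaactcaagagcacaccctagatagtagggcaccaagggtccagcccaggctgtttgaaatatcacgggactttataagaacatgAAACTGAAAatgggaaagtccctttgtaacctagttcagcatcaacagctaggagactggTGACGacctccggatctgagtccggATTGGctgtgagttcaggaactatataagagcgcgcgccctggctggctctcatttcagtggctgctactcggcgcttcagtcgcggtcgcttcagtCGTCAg
Tap1 (chr17:34187306-34187605, plus strand): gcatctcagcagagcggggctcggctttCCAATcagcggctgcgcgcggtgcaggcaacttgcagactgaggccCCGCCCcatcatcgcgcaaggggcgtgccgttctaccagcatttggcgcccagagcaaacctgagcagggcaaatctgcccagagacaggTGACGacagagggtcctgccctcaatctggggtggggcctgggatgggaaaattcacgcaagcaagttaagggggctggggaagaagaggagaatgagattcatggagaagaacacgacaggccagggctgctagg
Tapbp (chr17:33919228-33919527, plus strand): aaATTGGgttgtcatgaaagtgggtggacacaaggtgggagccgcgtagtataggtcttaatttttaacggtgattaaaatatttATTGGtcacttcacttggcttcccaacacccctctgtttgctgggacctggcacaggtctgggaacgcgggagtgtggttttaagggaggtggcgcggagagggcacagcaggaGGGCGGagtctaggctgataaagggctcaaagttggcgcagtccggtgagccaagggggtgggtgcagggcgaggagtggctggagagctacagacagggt
H2-Aa (chr17:34287774-34288073, minus strand): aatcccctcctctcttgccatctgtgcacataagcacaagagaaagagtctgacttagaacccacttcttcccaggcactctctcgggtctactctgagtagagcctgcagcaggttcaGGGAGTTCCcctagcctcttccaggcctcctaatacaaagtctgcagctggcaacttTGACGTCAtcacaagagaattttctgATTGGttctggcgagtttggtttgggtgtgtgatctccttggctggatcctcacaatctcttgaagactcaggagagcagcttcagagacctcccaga

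The searched motifs were ATTGG (the Y box, a CCAAT box read backwards), TGACG (part of the X2 box), AGCAAC (the core of the X1 box), TTTCNNTTT (an interferon-stimulated response element), GGGNNTTCC (κB), TTCNNNGAA (a STAT site), CACGTG (an E box) and GGGCGG (a GC box). ATTGG was found in all 6 member promoters and in 37.4% of the 32851 promoters of the RefSeq table, several of which can belong to 1 gene. TGACG was found in 5 members, all but Tapbp, and in 20.8% of the table. The κB match lay in H2-K1, H2-D1 and H2-Aa, against 5.82% of the table, and the GC box in Tap1 and Tapbp, against 35.7%. The exact interferon-response pattern lay in B2m alone among the members, against 10.6% of the table. H2-K1 and H2-D1 hold tttcacttc, which departs from that pattern in its last base. AGCAAC (14.8%), TTCNNNGAA (8.3%) and CACGTG (7.15%) were in none of the 6. Patterns were matched exactly, so variants such as ggcaac just before the TGACG match of H2-Aa stay unmarked. A missing match therefore does not show that an element is absent. The only overlapping matches were those to TGACG on both strands of H2-Aa. Some promoters held a second match on the opposite strand, to ATTGG in H2-K1 and H2-D1 and to TGACG in B2m.

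TGACG and ATTGG stood in a like arrangement in 3 of the 5 class I promoters and in the 1 class II promoter. In Tap1 the ATTGG match was on the opposite strand, and Tapbp had no TGACG match. From the first base of TGACG to the first base of ATTGG on the same strand the distance was 25 bases in H2-K1, H2-D1 and B2m, and 26 bases in H2-Aa. In H2-K1 the matches began 55 and 30 bases before the start. In B2m the matches began 78 and 53 bases before the start, and in H2-Aa 74 and 48 bases before it. A distance of 25 or 26 bases, chosen after these matches were seen, was found in 54 of the 32851 promoters (0.164%), which belong to 47 genes. H2-M3, which encodes a non-classical class I heavy chain, was 1 of them. The promoter of H2-Aa, which no peak touched, shares this arrangement with 3 class I promoters that a peak covered in full. A match describes letters in the window and does not show a bound factor.

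Peaks lay in the window of every class I member and covered less of the windows of the 3 class II members. All 7 class I members had a peak in the window and 2 of 3 class II members did, against 66.8% of all protein-coding genes. A peak lay within 1000 bp of the gene start (of either gene end for Tap2, Nlrc5, Ciita and H2-Ab1, for which no start was at hand) in 7 of 7 class I members and in 1 of 3 class II members, against 54.2% of all protein-coding genes under the same rule. Where a start was given, this was 5 of 5 in class I and 0 of 1 in class II, against 55% of 17274 genes. Peaks covered a median of 9506 bp of the window in class I (range 2212 to 15412 bp), 208 bp in class II (0 to 1854 bp) and 1693 bp over all protein-coding genes, a class I minus class II difference of 9298 bp. As a share of the window the medians were 31.2% in class I, 0.829% in class II and 3.16% over all protein-coding genes. The median protein-coding gene thus lay between the class medians, although H2-Ab1 alone, with 1854 bp and 7.08%, lay above the median of all protein-coding genes in both measures.

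**Figure D1:**
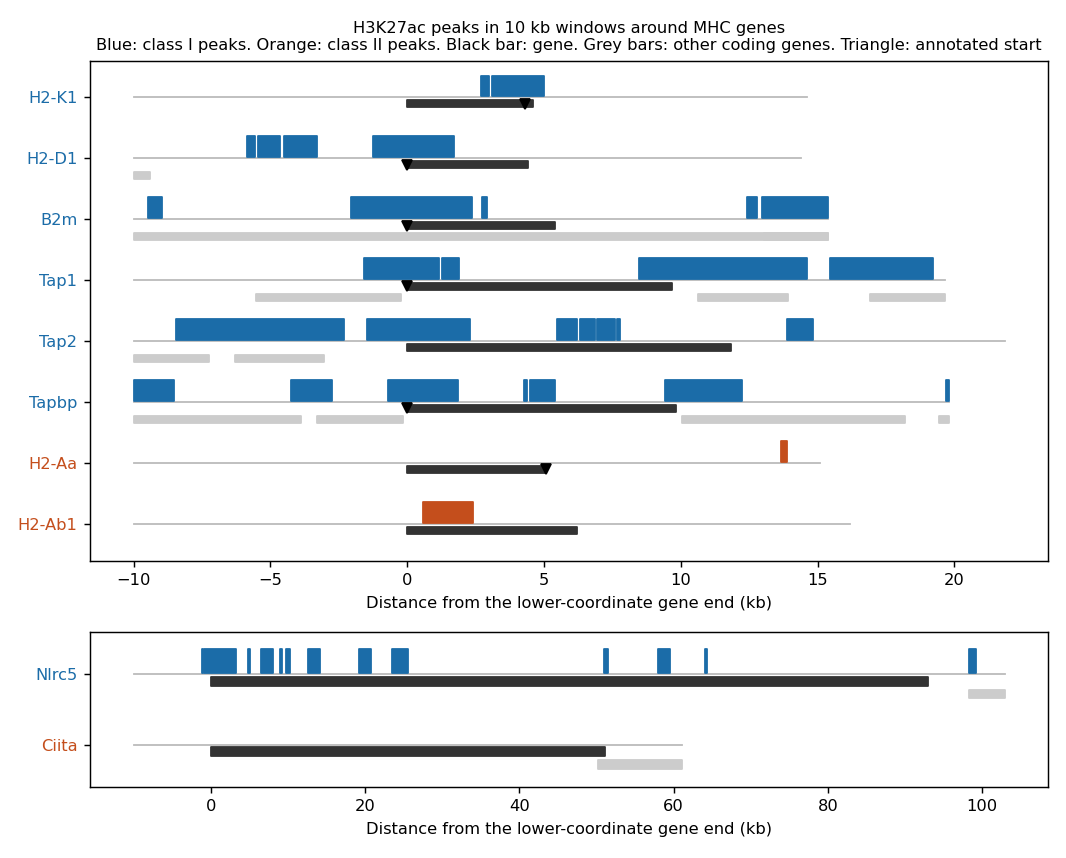
Peaks in the windows of the 10 genes, drawn by distance in kb from the gene end with the lower coordinate, with blue bars for class I peaks, orange bars for class II peaks, black bars for the gene, grey bars for other protein-coding genes and triangles for annotated starts. The 5 class I genes with a known start have a peak over it, H2-Aa has none, and the Ciita window has no peak.

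The classes did not overlap in covered length, yet they came close at H2-K1 and H2-Ab1. H2-K1 had 2212 bp and H2-Ab1 1854 bp. Inside the gene alone the order of single members changed, with 1854 bp in H2-Ab1 against 1807 bp in H2-K1 and 1705 bp in H2-D1. The windows of class I members also held more neighbours. Tapbp had 4 other protein-coding genes in its window, Tap1 had 3, Tap2 and B2m had 2 each, H2-D1 and Nlrc5 had 1 each and H2-K1 had 0. In class II, Ciita had 1 and H2-Aa and H2-Ab1 had 0. With peaks within 1000 bp of the start of another protein-coding gene left out, an alternative added with the data in view, the median lengths were 5121 bp in class I and 208 bp in class II. Under that rule Tap1 kept 629 bp, below H2-Ab1, because 3 of its 4 peaks lie at starts of Psmb9, Psmb8 or Tap2.

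**Figure D2:**
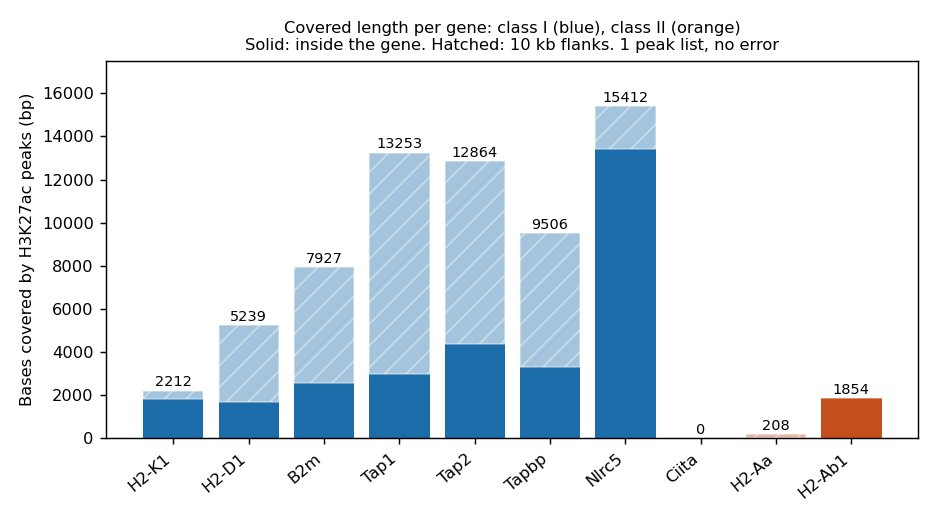
Bases covered by H3K27ac peaks in each gene (solid) and in its 10 kb flanks (hatched), in bp, with class I in blue and class II in orange. Nlrc5 has the most, at 15412 bp, and H2-K1, at 2212 bp, is the class I gene nearest to H2-Ab1, at 1854 bp.

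The heavy chain genes H2-K1 and H2-D1 were both marked over their starts. H2-K1 (chr17:33996012-34000619, GRCm38) had 2 peaks of 285 and 1927 bp. The wider one ran from 691 bases before the start to 1235 bases after it, and the narrow one ended 1620 bases after the start. Upstream of it, no peak followed for 23156 bp. H2-D1 (chr17:35263094-35267497) had 4 peaks. The widest, of 2960 bp, spanned the start from position -1255 to position 1704 relative to it. The others, of 271, 798 and 1210 bp, formed an upstream group from position -5844 to position -3308, with gaps of 129 bp. H2-D1 thus had 5239 covered bp and H2-K1 2212 bp, although their promoters were 90.5% identical over 253 aligned bases, with gaps left out. By this measure the other pairs of member promoters were 69.2 to 77.1% identical. Reads from near-identical class I copies can be shared between them or dropped in alignment. How the authors treated such reads is not given in the sources used here, and its part in these values was not tested.

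B2m, on another chromosome from the heavy chains (chr2:122147687-122153082), had the widest start peak of the members. This peak of 4400 bp ran from position -2048 to position 2351 relative to the start. A peak of 217 bp followed inside the gene. Of the 3 other peaks in the window, 1 of 4362 bp lay over the neighbour Trim69, and all of them lay within the annotated extent of Patl2, which spans B2m. In all 7927 bp of the window were covered (31.2%), 2569 bp of it inside B2m.

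Tap1 and Tap2, the transporter genes, had the largest covered shares among the members. Tap1 (chr17:34187556-34197225) had 13253 covered bp in 4 peaks, 44.7% of its window, at percentile 98.8 of all protein-coding genes for this share. A peak of 2747 bp covered its start together with the near end of Psmb9, an immunoproteasome subunit gene that is known to share a bidirectional promoter with Tap1. A peak of 6112 bp, the widest in any member window, ran from the upper end of Tap1 over the whole of Psmb8, another immunoproteasome gene. Tap2 (chr17:34204479-34216321) had 12864 covered bp in 7 peaks, 40.4% of its window. Its lower end was covered by a peak of 3765 bp, and 4 peaks of 100 to 747 bp, 78 to 93 bp apart, lay in the gene body. The windows of Tap1 and Tap2 shared the peaks of 6112 and 3765 bp, so these genes are not separate observations.

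Tapbp (chr17:33919478-33929290), which encodes tapasin, had 9506 covered bp in 7 peaks, 31.9% of its window. Its start peak of 2578 bp ran from 713 bases before the start to 1864 bases after it and also touched Zbtb22. Inside the gene lay peaks of 132 and 915 bp, and 2785 bp bridged the end of Tapbp and Rgl2. The remaining 3 peaks lay over the neighbours Daxx, Zbtb22, Pfdn6 and Wdr46, and 6214 of the 9506 bp were outside Tapbp.

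The transactivator genes stood at opposite ends of the members' covered lengths. Nlrc5 (chr8:94434335-94527272) had 13 peaks and 15412 covered bp, of which 13436 bp lay inside the gene. A peak of 4142 bp covered its lower end, where the noncoding gene 9330175E14Rik also lies. Together 9 peaks formed a cluster of 26777 bp (chr8:94433182-94459958) with 12053 covered bp. A further 3 peaks of 510, 1619 and 317 bp lay deeper in the gene, and from there to a peak at Cpne2 beyond the gene no peak lay for 33914 bp. As a share of its long window the cover was 13.6%, at percentile 83.9. Ciita (chr16:10480014-10531064) had 0 peaks in a window of 71.1 kb. It sat in a peak-free stretch of 128608 bp (chr16:10412889-10541496), which ended inside the neighbour Dexi. The nearest peaks were 67126 bp below and 10433 bp above the gene. The stretch holds the whole annotated gene, so any start within it would also lack a peak.

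H2-Aa and H2-Ab1, the genes of the I-A chains, differed from each other. H2-Aa (chr17:34282744-34287823) had no peak in the gene, and none of the 1000 bases on either side of its start was covered. Its only peak, of 208 bp, lay upstream, from position -8786 to position -8579 relative to the start, on the side of H2-Eb1. H2-Ab1 (chr17:34263227-34269418) had 1 peak of 1854 bp, wholly inside the gene and beginning 562 bp from its lower end. With a start window of 500 bp in place of 1000 bp H2-Ab1 no longer counts as having a start peak. The peak stood alone, with 23942 bp to the next peak below and 30759 bp to the next above. All of H2-Aa lies within that upper gap. The class II members thus had 208 and 1854 covered bp at the I-A genes and 0 bp at their transactivator gene.

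Along chromosome 17, where genes of both classes are neighbours, cover was uneven within class II as well. The 67.9 kb from H2-Oa to H2-DMb1 (chr17:34092379-34160229), which hold class II genes that are not members and the gene Brd2, were 23.2% covered, by 13 peaks. The 34.3 kb from Psmb9 to the end of Tap2 (chr17:34182030-34216321) were 44.6% covered, by 8 peaks. In the next 46.9 kb, up to H2-Ab1, 3 peaks covered 4.29%. The 24.6 kb from H2-Ab1 to H2-Aa were 7.54% covered by the single H2-Ab1 peak, and the 53.6 kb after H2-Aa, which hold H2-Eb1 and H2-Eb2, were 3.95% covered by 4 peaks, of which 1 of 1367 bp lay at the start of H2-Eb1.

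**Figure D3:**
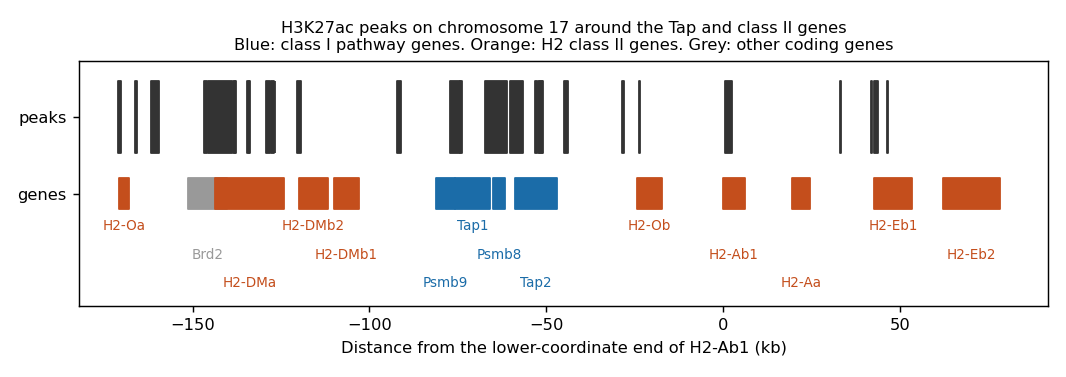
Peaks (upper row) and genes (lower row) on chromosome 17 by distance in kb from the lower end of H2-Ab1, with class I pathway genes in blue, class II genes in orange and Brd2 in grey. The stretch from H2-Oa to H2-DMb1 is 23.2% covered, the stretch from Psmb9 to Tap2 is 44.6% covered, and the stretch from H2-Ab1 to H2-Aa is 7.54% covered by 1 peak.

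Peaks at member starts had a larger median width than the rest. A wider peak meets the start rule more readily, and the part this plays was not tested. The 9 distinct peaks at member starts had a median width of 2747 bp (176 to 4400 bp), the 33 other peaks in the windows 747 bp (100 to 6112 bp), and all 56285 peaks 579 bp. Windows held a median of 5 peaks in class I, 1 in class II and 2 over all protein-coding genes. Of the 42 member peaks, 40 lay in the windows of the 7 class I members and 2 in those of the 3 class II members. Apart from the 9 start peaks, 8 lay at the start of another protein-coding gene and 25 at neither. Around the start, cover was complete for 1000 bases on both sides in H2-D1, B2m and Tap1. It was complete downstream and reached 691 of 1000 bases upstream in H2-K1 and 713 in Tapbp, and H2-Aa had 0 on both sides. Over the first listed starts of 17274 protein-coding genes the medians were 54 bases upstream and 310.5 bases downstream. The 300-base promoter was fully covered in 41.0% of these genes and untouched in 48.8%.

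**Figure D4:**
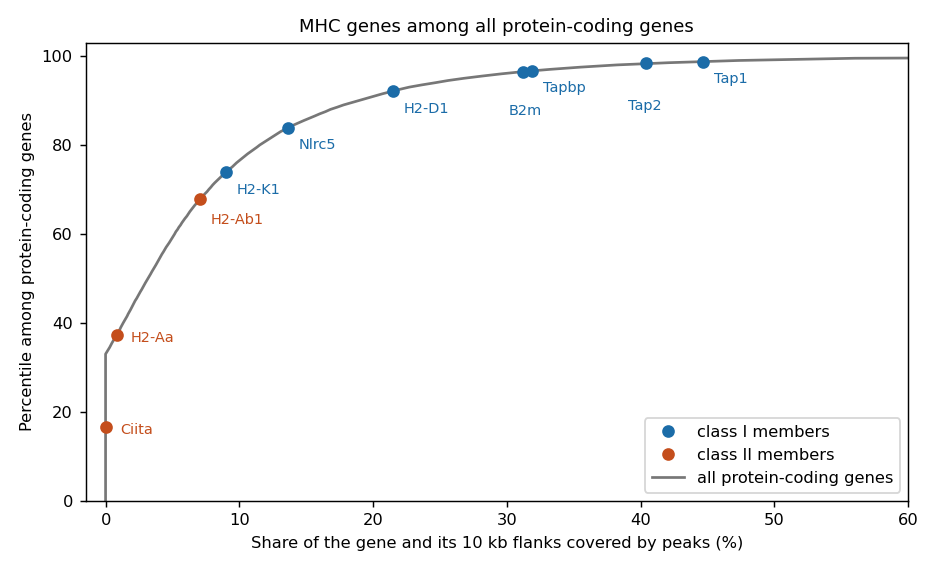
Percentile of each gene among all protein-coding genes (vertical) against the share of its window covered by peaks in percent (horizontal), with class I members in blue, class II members in orange and all protein-coding genes as the grey curve. Tap1 lies highest, at 44.7% covered, H2-K1 and H2-Ab1 lie side by side, at 8.99% and 7.08%, and Ciita lies at 0.

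Other genes of the pathway were counted on lists. Of 10 further class I processing and loading genes, 10 had a start peak, with a median of 26.2% of the window covered (2.95 to 53.1%). The longest were Tapbpl, a tapasin homologue (13941 bp, much of it in a peak of 10777 bp shared with Cd27), Psmb8 (12346 bp) and the chaperone gene Calr (10648 bp). Of 18 other class I heavy chain and related genes, 14 had a peak in the window, against 66.8% of all protein-coding genes. A start peak was found in 11, and the median cover was 4.93%. H2-T24 (19475 bp), H2-T23, which encodes Qa-1 (9961 bp), and H2-T22 (4163 bp) were the longest and lie side by side, so peaks of 1 are counted in the window of the next. H2-M2, H2-M5 and H2-M9 were among the 4 with no peak in the window. The start-peak share of these heavy chain genes, 11 of 18, was thus near the 54.2% of all protein-coding genes.

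Other class II genes were marked unevenly. Of 12, 8 had a start peak and 10 a peak in the window, against 54.2% and 66.8% of all protein-coding genes. Their median cover was 7.48%, above both the 0.829% of the 3 class II members and the 3.16% of all protein-coding genes. H2-DMa, part of the peptide exchanger of class II, had 12401 bp, including a peak of 6791 bp that it shares with its neighbour Brd2. Ifi30, a lysosomal thiol reductase gene, had 6455 bp, of which 1472 bp lay inside the gene. Ctss, the protease cathepsin S, had 4006 bp. H2-Eb2 and Marchf1 had no peak. Cd74, the invariant chain that escorts class II, had 2615 bp in 4 peaks. With these lists joined to the members, the median covered length was 3680 bp in class I and 2119 bp in class II, a much smaller difference (1561 bp) than between the members. Both medians moved, from 9506 bp in class I and 208 bp in class II. The joined lists had medians of 1426 bp (class I heavy chain and related genes), 8069 bp (class I processing and loading genes) and 2447 bp (class II genes).

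All 12 regulators of MHC genes had a start peak, against 54.2% of all protein-coding genes, and their median cover was 11.2% of the window, against 3.16%. They include Rfx5, Rfxank and Rfxap, the RFX subunits bound at the X box (3051, 3447 and 1883 bp), and Nfya, Nfyb and Nfyc, the subunits of the Y-box factor NF-Y (6735, 3665 and 7773 bp). Nfkb1 had 70257 bp in 47 peaks, Irf2 had 10153 bp, and Irf1, an interferon response factor, had 5312 bp.

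**Figure D5:**
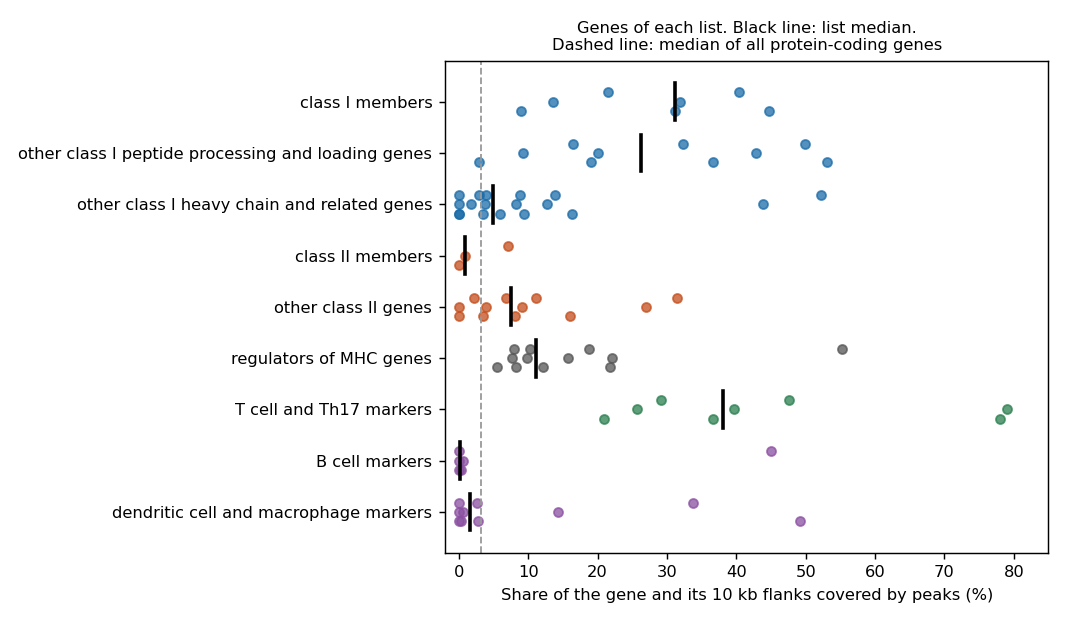
Share of the gene and its 10 kb flanks covered by peaks, in percent, for each gene (points) of each list, with list medians as black lines and the median of all protein-coding genes, 3.16%, as a dashed line. Class I members and loading genes centre on 31.2% and 26.2%, class II members on 0.829%, and B cell markers on 0.135%.

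The labelled cell type was checked on marker genes, beside shares over all protein-coding genes of 54.2% with a start peak and 66.8% with a peak in the window. All 8 T cell and Th17 markers had a start peak, with a median cover of 38.1% and Cd5 (31927 bp), Il23r (22797 bp) and Il17a (18645 bp) the longest. Of 6 B cell markers, 0 had a start peak, and the median cover was 0.135%. Cd79b and Ms4a1 had no peak in the window, Pax5 and Blnk had 554 and 499 bp, and Cd79a had 10981 bp, of which 687 bp lay inside the gene and most lay over Rps19 and Arhgef1. Of 10 dendritic cell and macrophage markers, 7 had a peak in the window, and the median cover was 1.6%. The window count is near the share over all protein-coding genes. A start peak was found in 2, Batf3 and Cd86, the latter judged by either gene end for want of a start. By either gene end for every gene, 4 of the 10 had a peak, with Zbtb46 and Xcr1 added. That count was 1 of 6 for B cell markers (Cd79a), 8 of 8 for T cell and Th17 markers and 11637 of 21631 for all protein-coding genes. Adgre1, C1qa and Lyz2 had no peak, while Zbtb46 (20329 bp), Batf3 (15018 bp) and Xcr1 (10039 bp) were the longest. Of the Xcr1 cover 430 bp lay inside the gene. Of the Zbtb46 cover 13387 bp lay inside the gene, including a peak of 6564 bp that also overlaps Zgpat and Lime1. The Zbtb46 window holds 5 other protein-coding genes with start peaks. The share of class II cover that comes from cells other than Th17 cells was not tested.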

How the data were processed

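The submitters' processing notes name the build GRCm38 (mm10) and the tools MACS2 (2.2.6), deepTools, Bowtie2 (2.3.4.1) and SAMtools (1.9). MACS peaks were called with input DNA of both replicates, per the series' design text. What threshold and filters applied, and whether replicates were pooled, was not given in the sources used here. Deposited by the authors are the position and name of each peak, with no measured value. The names share a prefix containing WT and Ddx5, and they name no replicate. Whether the prefix stands for a genotype is not given, since the labels state none. Starts were read as counted from 0, because the narrowest peaks are then exactly 100 bp, and are printed counted from 1.

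Genes came from a RefSeq table (GRCm38.p6), and starts and promoter sequences from a RefSeq promoter table, which matched 6 of 10 members and 17274 of 21631 protein-coding genes. Genes without a start were judged by either end, a mix planned for this case. Members, lists and motifs were chosen with earlier results of these data known. Named are all members, protein-coding genes in their windows, and from each of 7 lists the 3 longest covered and up to 3 without a peak. Of the 78 list genes, 76 were found among the protein-coding genes, all but H2-T10 and Cd1d2. Further names (H2-M3, H2-Eb1, H2-Oa, H2-DMb1, Cd74, Cd86, Irf1, the RFX and NF-Y genes) were added after their values were seen. Some genes that the rule names are left out of the text. Clusters joined peaks at most 10000 bp apart. Alternatives were other flanks, start windows and gene sets, minimum widths, midpoints, merging and nearest-gene assignment. Overlap code was checked on simulated peaks. Python 3.11.15, numpy 2.4.6, pandas 2.3.3, matplotlib 3.10.9 and, for promoter identity, Biopython 1.88 were used.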

Additional observations from a re-analysis of the deposited data

How the results depend on the processing

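The count of class I members with a peak in the window was 7 of 7 under all 7 alternatives run for it. With a start peak it was 7 under 5 of 6 alternatives and 6 by peak midpoint. The class II window count of 2 became 1 with a flank of 0 or 5000 bp and with peaks of at least 500 or 1000 bp, since the 208 bp peak near H2-Aa then drops out. It became 3 with a flank of 20000 bp, where Ciita has 4 peaks and 2771 bp. All 4 lie on the Dexi side of Ciita, the nearest of them inside Dexi, since the next peak on the other side is 67126 bp away. The class II start count of 1 became 0 with a start window of 500 bp and by peak midpoint. The class I minus class II difference of 9298 bp stayed positive under all 12 alternatives. It was 2966, 7914 and 12877 bp with flanks of 0, 5000 and 20000 bp, 9374 and 8459 bp with peaks of at least 500 and 1000 bp, 9645 bp by midpoint, 6202 bp with each peak given to its nearest protein-coding gene, 9392 bp with peaks at most 1000 bp apart merged, and 30.4 percentage points as a share of the window. It was 1561 bp with the further class I and class II genes joined to the members. Chosen after the data were seen, it was 7685.5 bp without Nlrc5 and Ciita and 4913 bp without peaks at starts of other genes. No paired analysis was possible because the list holds no value per library, and for the same reason no replicate could be left out. The list has no score, so a stricter peak threshold could not be applied, and the width limits do not replace it.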

Other observations

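Joining peaks at most 10000 bp apart put the members in clusters of very different size. H2-D1 lay at the end of a cluster of 26 peaks over 103842 bp (chr17:35160957-35264798) with 62270 covered bp, at or above the covered length of 99.9% of 20609 clusters, and its own 4 peaks made up 5239 bp of this. Tapbp lay in a cluster of 14 peaks with 23342 covered bp. Tap1 and Tap2 shared a cluster of 9 peaks with 16240 covered bp, and B2m lay in a cluster of 10 peaks with 13759 covered bp. H2-K1, whose promoter is 90.5% identical to that of H2-D1 over the aligned bases, formed a cluster of its own of 2 peaks and 2212 covered bp, and H2-Ab1 was a single peak of 1854 bp. The windows of the heavy chain genes H2-T24 and H2-T23 shared a peak of 8266 bp.

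Of the 47 genes whose promoter holds TGACG followed by ATTGG at 25 or 26 bases, 42 were protein-coding. Of these, 34 (81.0%) had a start peak, against 55% of the 17274 protein-coding genes with a given start. H2-Aa was 1 of the 8 without one. These genes were picked by a distance seen in the members, and H2-K1, H2-D1 and B2m, which set it, are counted among the 34. The share was not tested.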
